A study of Mus musculus with 6 samples.

Results

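Kidney cells in the cell cycle were described by lineage in sham and DOCA-salt mice. A cell barcode counted as cycling when it held at least 1000 unique molecular identifiers (UMIs, each standing for 1 captured RNA molecule), at most 50% mitochondrial UMIs, and at least 1 UMI of at least 3 of the 6 genes Mki67, Top2a, Cdk1, Ccna2, Birc5 and Ube2c. The members were thus selected on measured values. The rule found 594 cycling barcodes among 50910 that met the limits on UMIs and mitochondrial RNA (eligible barcodes), out of 76774 in all. The lineage was read from 5 gate genes: at least 2 UMIs of Slc34a1 (proximal tubule), Slc12a1 (thick ascending limb) or Col1a1 (fibroblast), or at least 1 UMI of Ptprc (immune) or Pecam1 (endothelial). A barcode that passed 1 gate only was put in that lineage, and barcodes that passed several gates or none formed classes of their own.

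The data came from the kidneys of 6 male C57BL/6 mice aged 8 to 10 weeks, with 1 droplet single-cell library per mouse and 3 mice per group. The DOCA-salt mice had lost their left kidney, then carried a pellet of 50 mg deoxycorticosterone acetate (DOCA), a steroid that activates the mineralocorticoid receptor, and drank 1% NaCl for 21 days. The sham mice underwent a sham surgery, had no pellet and drank normal water. Loss of a kidney and DOCA-salt cannot be told apart in this design.

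Cells enter the cycle through D-type cyclins and E2F factors, copy their DNA in S phase and divide in mitosis. Most cells of the adult kidney rest outside the cycle. Tubular cells can return to it after injury, and endothelial cells, fibroblasts and immune cells can divide in an inflamed or remodeling kidney.

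The 6 genes of the rule act at different steps. Mki67 encodes Ki-67, a coat protein of mitotic chromosomes, Top2a untangles DNA, and Cdk1 is the kinase that drives mitosis, with Ccna2 (cyclin A2) as a partner. Birc5 (survivin) belongs to the chromosomal passenger complex, and Ube2c loads ubiquitin for the anaphase-promoting complex. Many such genes are switched together through 2 short promoter elements, the CCAAT box bound by NF-Y and the CHR element TTTGAA. The 250 bases before the start of the 3 genes that gave the cells their name are shown, with every CCAAT (or ATTGG on the other strand) and every TTTGAA (or TTCAAA) in capitals, taken from RefSeq on build GRCm38.p6 (Mki67, chr7:135716380-135716629, minus strand; Top2a, chr11:99024190-99024439, minus strand; Cdk1, chr10:69352913-69353162, minus strand).
Mki67: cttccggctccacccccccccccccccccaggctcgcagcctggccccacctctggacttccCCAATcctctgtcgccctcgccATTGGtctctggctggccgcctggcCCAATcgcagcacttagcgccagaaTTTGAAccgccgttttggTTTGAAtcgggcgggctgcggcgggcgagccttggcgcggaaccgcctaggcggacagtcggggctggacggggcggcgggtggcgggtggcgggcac
Top2a: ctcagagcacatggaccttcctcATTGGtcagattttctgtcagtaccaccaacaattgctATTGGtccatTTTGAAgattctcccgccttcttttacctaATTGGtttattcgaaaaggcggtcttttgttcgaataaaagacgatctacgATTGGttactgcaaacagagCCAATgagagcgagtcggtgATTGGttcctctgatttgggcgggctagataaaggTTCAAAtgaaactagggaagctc
Cdk1: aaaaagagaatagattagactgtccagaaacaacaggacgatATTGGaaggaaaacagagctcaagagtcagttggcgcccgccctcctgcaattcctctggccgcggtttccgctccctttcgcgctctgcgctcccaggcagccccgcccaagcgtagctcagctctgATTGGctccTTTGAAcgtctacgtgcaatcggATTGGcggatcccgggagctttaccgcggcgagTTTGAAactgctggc

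Both strings occurred in all 3 of these windows. Mki67 held 3 CCAAT and 2 TTTGAA matches, Top2a held 6 and 2, and Cdk1 held 3 and 2. Ube2c held 6 CCAAT matches, of which a pair overlapped, and 1 TTTGAA match, whereas the Birc5 window held 0 of each. Of the 6 rule genes, 5 were matched in the table, and Ccna2 was not. Among 32851 promoters of the same length, 33.8% held a CCAAT, 2.79% held 3 or more, 16.0% held a TTTGAA and 5.55% held both. A match is a run of letters and does not show that a factor was bound.

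Mki67 was detected in 91.6% of the cycling barcodes, with a mean of 7.77 UMIs, and in 2.61% of the other eligible barcodes. Birc5 was detected in 89.4% of the members, Top2a in 81.6%, Cdk1 in 77.4%, Ube2c in 70.2% and Ccna2 in 66.2%. Of all Ube2c UMIs in eligible barcodes, 91.3% lay in cycling barcodes, and of all Mki67 UMIs, 74.0%. These values follow from the rule and describe its members. All 6 genes were detected in 237 members, 5 in 117, 4 in 103 and 3 in 137. The 137 barcodes just inside the rule held a median of 5 UMIs of the 6 genes, and the 291 barcodes just outside it, with 2 genes detected, held a median of 2.

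The libraries held 11058 to 14449 barcodes and 93172739 to 137819127 UMIs each, and no library was left out. Eligible barcodes had a median of 8583.5 UMIs in sham and 9614 in DOCA-salt mice, and cycling barcodes 15976 and 16697. Across libraries, 328 eligible barcode sequences occurred more than once, and 0 were cycling in more than 1 library. Of the 594 members, 64 were among the barcodes with the highest doublet scores. The median mitochondrial share of the members was 12.0%, 16.4% and 9.59% in the sham mice and 5.74%, 6.20% and 5.93% in the DOCA-salt mice. In members of the proximal tubule class the median was 21.8%, 19.5% and 13.9% in the sham mice and 12.0%, 21.5% and 21.3% in the DOCA-salt mice.

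Cycling barcodes numbered 66, 106 and 25 in the 3 sham mice and 131, 158 and 108 in the 3 DOCA-salt mice. They made up 0.742%, 1.47% and 0.288% of the eligible barcodes in sham and 1.51%, 1.73% and 1.30% in DOCA-salt mice. The highest sham mouse lay between the DOCA-salt mice, so the groups overlapped. The mean share was 0.834% ± 0.597 (SD, n = 3) in sham and 1.51% ± 0.218 in DOCA-salt, which did not differ beyond the spread between mice (edgeR quasi-likelihood p = 0.335, two-sided exact permutation p = 0.2). Without sham replicate 2 the difference was 0.998 percentage points and passed the edgeR test (p = 0.0246, against an exact permutation p of 0.2 with all mice). With all mice and a mitochondrial limit of 20% it was 1.10 points and also passed (edgeR p = 0.0427, exact permutation p = 0.1). With the cycling rule read after thinning each barcode to 2000 UMIs it was 0.153 points and did not pass (edgeR p = 0.536, exact permutation p = 0.5). Barcodes under 2000 UMIs were left out there. In all thinned counts the gates and marker lists were read from the full counts, so that only the cycling rule was set to equal depth.

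Lineage by lineage, proximal tubule and immune cells cycled in both groups, and endothelial cells cycled more often in DOCA-salt mice. In each lineage the number of cycling barcodes per mouse was tested with edgeR's quasi-likelihood test against the eligible barcodes of that lineage, and p-values were adjusted over the 7 classes. With 3 against 3 mice the exact permutation test cannot go below 0.1.

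Among barcodes that passed the Pecam1 gate alone, 0 of 179, 0 of 314 and 0 of 133 were cycling in the sham mice, against 14 of 380, 16 of 420 and 9 of 346 in the DOCA-salt mice. The DOCA-salt shares were 3.68%, 3.81% and 2.60% (3.36% ± 0.664, SD, n = 3). The sham total of 0 of 626 barcodes allows a share of up to 0.479%. The pooled DOCA-salt share of 39 of 1146 barcodes, 3.40%, was at least 7.10-fold higher by this bound. The bound covers counting error over pooled barcodes and not the spread between mice. It holds for barcodes of the Pecam1 gate alone, and with other gates admitted the mean shares differed 4.48-fold. All DOCA-salt mice lay above all sham mice, and the difference passed the test (edgeR adjusted p = 7.34e-06, exact permutation p = 0.1). Eligible barcodes of this class were shallower in sham mice, with a median of 3563 UMIs against 6041. When the cycling rule was read after thinning to 2000 UMIs, with the gates at full depth, the share was 0 in sham and 1.70% in DOCA-salt mice (edgeR adjusted p = 0.0279). The pooled share was then at least 3.25-fold higher by the same kind of bound.

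Many endothelial members were missed by a gate that bars all others. Of 397 cycling barcodes in DOCA-salt mice, 193 passed more than 1 gate, and of 197 in sham mice, 57. The commonest pair in DOCA-salt mice was Slc34a1 with Pecam1, in 60 barcodes. These held a median of 110 UMIs of 10 further endothelial genes and 14 of Pecam1, but 3 of Slc34a1. Members that passed the Slc34a1 gate alone held a median of 29.5 Slc34a1 UMIs and 173.5 UMIs of the proximal tubule function list in DOCA-salt mice, and 28 and 278 in sham mice. Low Slc34a1 counts were common in endothelial barcodes at large. Among barcodes with at least 10 endothelial-list UMIs, 67.3%, 38.9% and 73.7% in sham and 40.2%, 58.0% and 55.1% in DOCA-salt mice passed the Slc34a1 gate. The median there was 1 to 3 UMIs of Slc34a1, against 19.5 to 38 in the proximal tubule class. Of the 60 DOCA-salt members with both genes, 7 had a high doublet score.

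**Figure D1:**
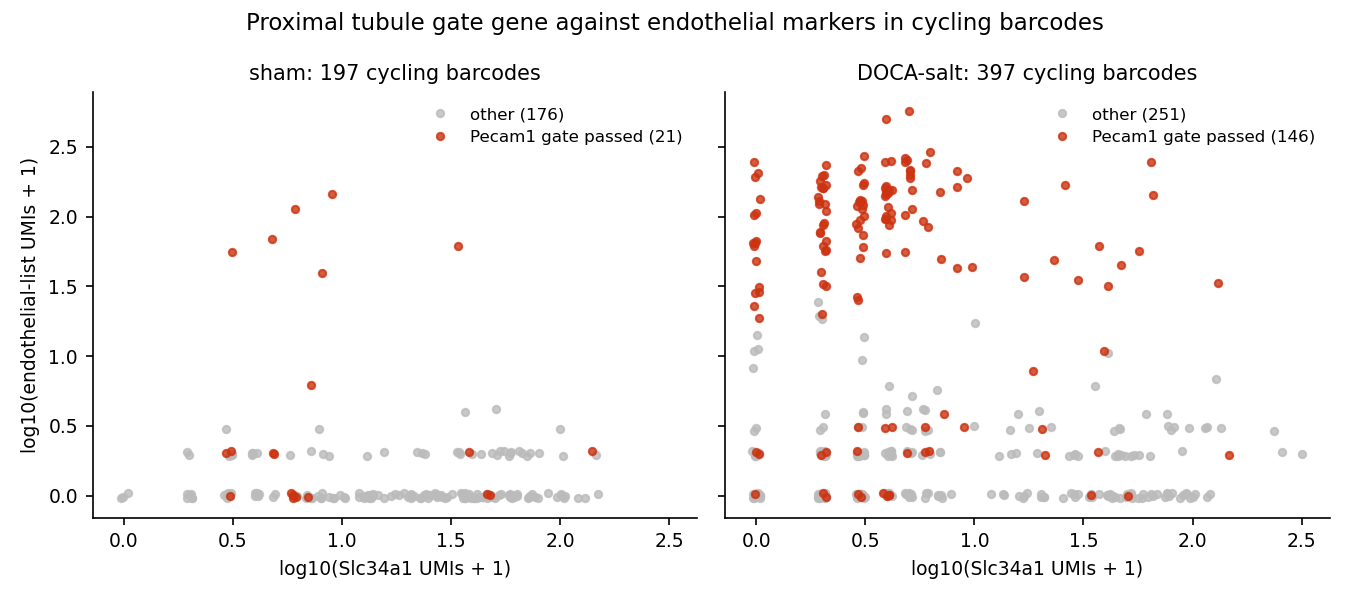
Each point is 1 cycling barcode, placed by its Slc34a1 UMIs (x axis) and its UMIs of 10 endothelial genes (y axis), both as log10 of the count plus 1 with a small jitter, and colored by whether it passed the Pecam1 gate. The 146 DOCA-salt barcodes that passed it lie mostly at high endothelial counts with few Slc34a1 UMIs, 117 of them with at least 5 UMIs of the list, and 7 of the 21 sham barcodes that passed it reach that level.

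The lineages were therefore also counted in another way, chosen after these overlaps were seen: a barcode had to pass the gate and to hold at least 5 UMIs of further markers of the lineage (50 for the proximal tubule), whatever other gates it passed. By this count 2 of 512, 1 of 483 and 4 of 497 endothelial barcodes were cycling in the sham mice, and 31 of 635, 52 of 1056 and 34 of 777 in the DOCA-salt mice. The shares were 0.391%, 0.207% and 0.805% against 4.88%, 4.92% and 4.38%. The means of 0.467% ± 0.306 and 4.73% ± 0.305 (SD, n = 3) differed 10.1-fold (log2 3.28 ± 0.56 SE, edgeR adjusted p = 0.000816 over 5 lineages, exact permutation p = 0.1). Of the 7 sham barcodes, 4 came from sham replicate 3, without which the means were 0.299% and 4.73% (log2 3.89 ± 0.50 SE). Thinned to 2000 UMIs, 4 of 1407 barcodes were cycling in sham and 45 of 2400 in DOCA-salt mice (edgeR adjusted p = 0.00577), and the means differed 6.77-fold. The gate and the list were still read at full depth, where eligible barcodes had a median of 4901 UMIs in sham and 9028 in DOCA-salt mice. With the Pecam1 gate alone and other gates allowed, the shares were 0.892% ± 0.293 and 4.00% ± 0.366 (SD, n = 3; edgeR adjusted p = 0.00385).

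Levels of vascular genes in the 117 cycling endothelial barcodes of the DOCA-salt mice are given here as CPM, the UMIs of a gene scaled to 1000000 UMIs of the summed barcodes. The genes named here belong to the list of 10 by which these barcodes were chosen, so that their presence follows from the choice and only their levels are described. Cdh5 (VE-cadherin, the adhesion molecule of endothelial junctions) was at 933, 689 and 932 CPM in the 3 mice. Flt1, a receptor of vascular endothelial growth factor, was at 1251, 1241 and 1245 CPM, and Kdr, the main signaling receptor of that factor, at 546, 523 and 548 CPM. The mice lay close together for these genes. Plvap, which forms the diaphragms of fenestrated capillaries, was at 1125, 675 and 526 CPM. Ehd3, a marker of glomerular endothelium in mice, was at 103 ± 23.5 CPM (SD, n = 3), against 222 ± 22.2 CPM in non-cycling endothelial barcodes of the same mice. Sox17, a transcription factor of arterial endothelium, was at 429 ± 81.7 CPM against 315 ± 75.9, and Plvap at 775 ± 312 against 1111 ± 72.6. Cycling and non-cycling barcodes were split by the rule, so that these pairs are given without a test. The 7 sham members were too few for gene levels to be compared.

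In the proximal tubule, which reabsorbs most of the filtrate, 38 of 5767, 81 of 4677 and 10 of 5690 barcodes were cycling in the sham mice and 34 of 4801, 48 of 4370 and 24 of 4474 in the DOCA-salt mice. The shares were 0.659%, 1.73% and 0.176% in sham and 0.708%, 1.10% and 0.536% in DOCA-salt mice. The DOCA-salt mice lay inside the sham range. The mean shares of 0.856% ± 0.796 and 0.781% ± 0.288 (SD, n = 3) did not differ beyond the spread between mice (log2 -0.12 ± 0.67 SE, edgeR adjusted p = 0.855, exact permutation p = 0.9). The sign of the difference turned with several settings. Thinned to 2000 UMIs, the shares were 0.402% in sham and 0.212% in DOCA-salt mice (edgeR adjusted p = 0.376). By gate plus markers the thinned shares were 0.474% and 0.214% (edgeR adjusted p = 0.486). With at least 50 UMIs of the proximal tubule list required, the shares were 1.08% ± 0.988 and 1.01% ± 0.293 (SD, n = 3; edgeR adjusted p = 0.918).

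In the thick ascending limb, the NaCl-reabsorbing segment marked by Slc12a1, 0 of 812 sham barcodes were cycling, which allows up to 0.369%, against 3 of 460, 1 of 335 and 2 of 287 in the DOCA-salt mice. The 6 members held a median of 106 UMIs of further thick limb genes. The mean share of 0.549% ± 0.218 (SD, n = 3) in DOCA-salt mice passed the test against sham (edgeR adjusted p = 0.0334), but the call rested on these 6 barcodes. By counting error alone, their pooled share of 0.555% was at least 1.50-fold higher than in sham mice. The 0.299% of DOCA-salt replicate 2 lay under what the sham count allows. The call was lost when barcodes that also passed other gates were admitted, where 20 of 3427 sham and 56 of 3754 DOCA-salt barcodes were cycling (edgeR adjusted p = 0.306), and also when thick limb markers were required of them, where 14 of 3017 and 41 of 3274 were cycling (edgeR adjusted p = 0.181). Eligible barcodes of the single-gate class were shallower in sham mice, with a median of 6356.5 UMIs against 7930. Thinning to 2000 UMIs also ended the call (edgeR adjusted p = 0.376), as did a block for the replicate number (edgeR adjusted p = 0.140).

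Among barcodes passing the Ptprc gate alone, 0 of 129, 3 of 239 and 2 of 118 were cycling in sham and 13 of 450, 5 of 433 and 11 of 406 in DOCA-salt mice. The groups overlapped, with mean shares of 0.983% ± 0.880 and 2.25% ± 0.954 (SD, n = 3; edgeR adjusted p = 0.123). Eligible barcodes of this class were shallower in sham mice, with a median of 3549.5 UMIs against 4830, and thinned to 2000 UMIs the shares were 0.627% in sham and 0.561% in DOCA-salt mice, the opposite direction. With further immune markers required, 34 of 994 sham and 108 of 2484 DOCA-salt barcodes were cycling, at 3.40% ± 0.849 and 4.45% ± 1.05 (SD, n = 3; edgeR adjusted p = 0.536). Fibroblasts gave 0 of 23 cycling barcodes in sham mice, which allows up to 13.0%, and 6 of 377 in DOCA-salt mice, so that no difference was detectable at this depth (edgeR adjusted p = 0.466). The 15 DOCA-salt members with fibroblast markers came from all 3 mice (2, 8 and 5 barcodes). Col1a2 and Col3a1, which encode fibrillar collagen chains, were at 1989 ± 1515 and 1973 ± 1285 CPM in them (SD, n = 3), a wide spread. Both genes belong to the list by which these members were chosen, so that their presence follows from the choice.

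**Figure D2:**
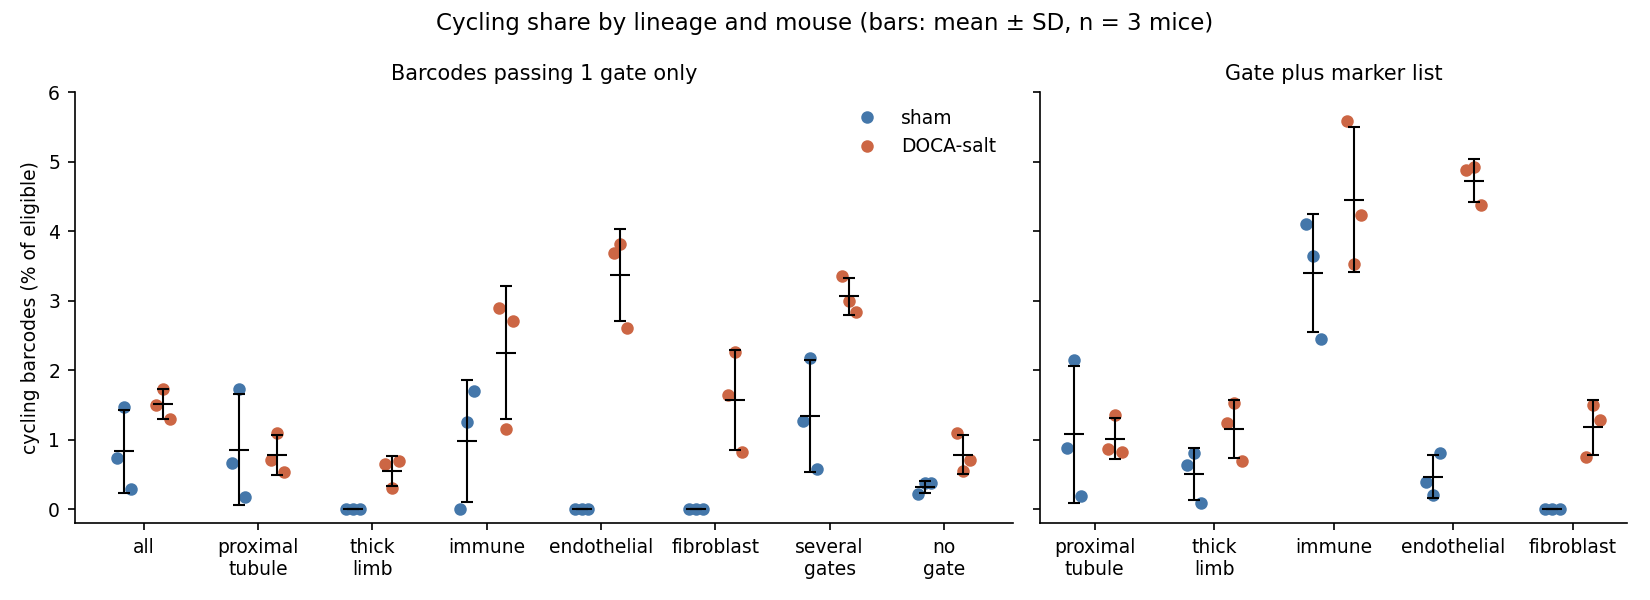
The y axis gives the cycling barcodes as a percentage of the eligible barcodes of a class, with 1 point per mouse and bars for the mean ± SD (n = 3 mice per group), for barcodes that passed 1 gate only (left) and for barcodes that passed a gate and held further markers of the lineage (right). The DOCA-salt mice lie above the sham mice in the endothelial and fibroblast classes of both panels. On the left they also do so in the thick limb, several-gates and no-gate classes. The groups overlap in the proximal tubule and immune classes of both panels, in all cells on the left and in the thick limb on the right.

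The remaining classes differed in the same direction without passing the test. Barcodes of several gates were cycling at 1.34% ± 0.802 in sham and 3.06% ± 0.268 in DOCA-salt mice (SD, n = 3; edgeR adjusted p = 0.123). Barcodes of no gate were cycling at 0.324% ± 0.0884 and 0.787% ± 0.279 (edgeR adjusted p = 0.118). Among the 18 no-gate members of the DOCA-salt mice, 6 held at least 5 UMIs of collecting duct principal cell genes and 4 of distal convoluted tubule genes, segments for which the rule has no gate. Of the 6 sham members, 2 held at least 5 UMIs of principal cell genes.

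The mix of lineages among cycling cells followed from these shares and from how many cells of each lineage were captured. Proximal tubule barcodes of 1 gate only made up 57.6%, 76.4% and 40.0% of the members in sham and 26.0%, 30.4% and 22.2% in DOCA-salt mice. Every sham mouse lay above every DOCA-salt mouse, with means of 58.0% ± 18.2 and 26.2% ± 4.08 (SD, n = 3; exact permutation p = 0.1, adjusted 0.175 over the 7 classes, with 0.1 the smallest p possible). Counted by gate plus markers, the proximal tubule means were 65.0% ± 25.7 and 34.8% ± 6.09 (SD, n = 3; exact permutation p = 0.2), and the groups overlapped, with sham replicate 3 at 36.0% and DOCA-salt replicate 2 at 41.8%. Endothelial barcodes of 1 gate only made up 0 in sham and 9.72% ± 1.23 in DOCA-salt mice, and barcodes of several gates 34.3% ± 14.2 and 48.6% ± 5.10. The endothelial part was 6.66% ± 8.16 and 29.4% ± 4.98 by gate plus markers (exact permutation p = 0.1, n = 3) and 17.3% ± 16.7 and 36.4% ± 4.55 for every barcode passing Pecam1 (exact permutation p = 0.2, n = 3).

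**Figure D3:**
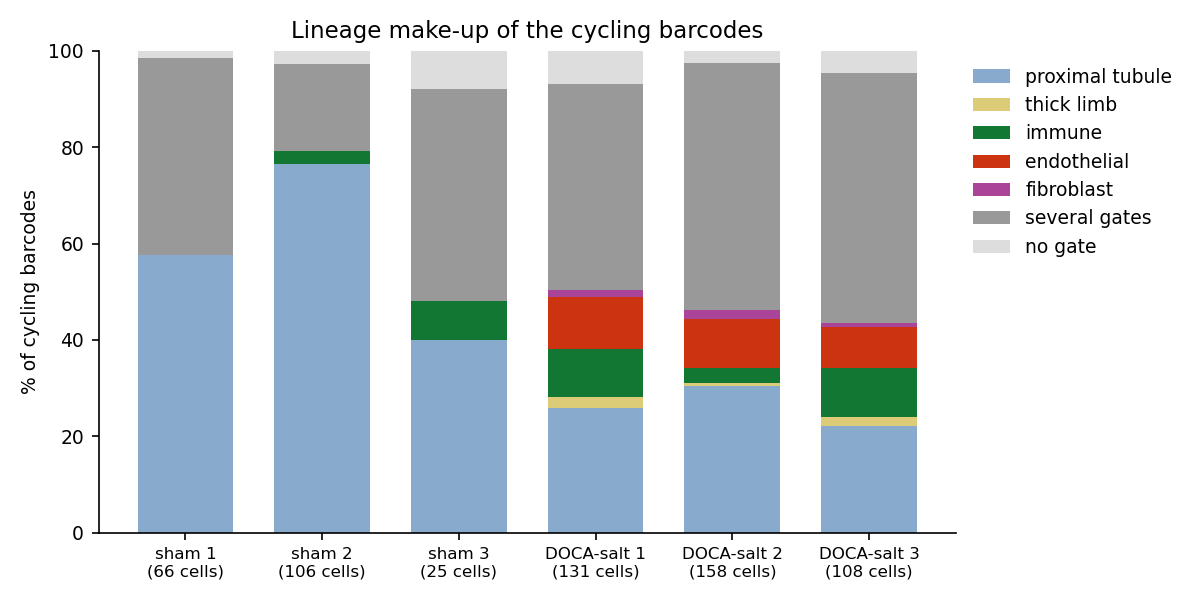
Each bar is 1 mouse, with the number of its cycling barcodes under it, and its colored parts give the percentage of these barcodes in each class. Of the parts for barcodes that passed 1 gate only, the proximal tubule part is the tallest in every mouse and is between 40.0% and 76.4% in sham and between 22.2% and 30.4% in DOCA-salt mice.

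Cycling immune cells were sorted further by which of 7 immune marker lists had the most UMIs, at least 2, over all 157 members that passed the Ptprc gate. Barcodes led by the macrophage list (C1q complement genes, Adgre1, Csf1r and others) numbered 2, 2 and 0 in the sham mice and 21, 22 and 15 in the DOCA-salt mice. They made up 11.1%, 14.3% and 0 of the cycling immune barcodes in sham and 50.0%, 62.9% and 37.5% in DOCA-salt mice. The groups did not overlap (8.47% ± 7.50 and 50.1% ± 12.7, SD, n = 3; exact permutation p = 0.1, the smallest possible). The macrophage list also led in more of all eligible immune barcodes, 30.1% in sham and 57.2% in DOCA-salt mice. Of the eligible macrophage-led barcodes, 4 of 469 in sham and 58 of 1844 in DOCA-salt mice were cycling, at 0.853% ± 0.754 and 3.29% ± 1.15 (SD, n = 3; exact permutation p = 0.1). These barcodes had a median of 4293 UMIs in sham and 6014 in DOCA-salt mice. Thinned to 2000 UMIs, 1 of 460 and 19 of 1790 were cycling, at 0.189% ± 0.328 and 1.13% ± 0.586, and the groups still did not overlap (SD, n = 3; exact permutation p = 0.1).

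Barcodes led by the dendritic cell, monocyte and T cell lists cycled in both groups. Barcodes led by the dendritic cell list were cycling at the highest share among these lists, with 12 of 69 in sham and 20 of 137 in DOCA-salt mice (16.1% ± 10.6 and 14.2% ± 4.62, SD, n = 3; exact permutation p = 0.9). Barcodes led by the monocyte list gave 11 of 136 and 14 of 216 (exact permutation p = 0.9), and those led by the T cell list 9 of 235 and 17 of 380 (exact permutation p = 0.5). Members led by the NK cell and neutrophil lists numbered 0 in both groups, and the B cell list gave 0 of 122 in sham and 1 of 54 in DOCA-salt mice. Levels of marker genes are described in the cycling barcodes with the Ptprc gate and further immune markers, 34 in sham and 108 in DOCA-salt mice. These genes belong to the lists by which immune barcodes were chosen and sorted, so that their levels restate the choice. C1qa, a complement gene of resident macrophages, stood at 255, 0 and 0 CPM in the sham mice and at 1258, 907 and 1624 CPM in the DOCA-salt mice. Trem2, a lipid-sensing receptor of macrophages, stood at 7.85, 0 and 0 against 84.6, 95.5 and 87.9 CPM. Cd3e, a chain of the T cell receptor complex, stood at 157, 52.2 and 106 against 37.5, 40.7 and 57.4 CPM.

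**Figure D4:**
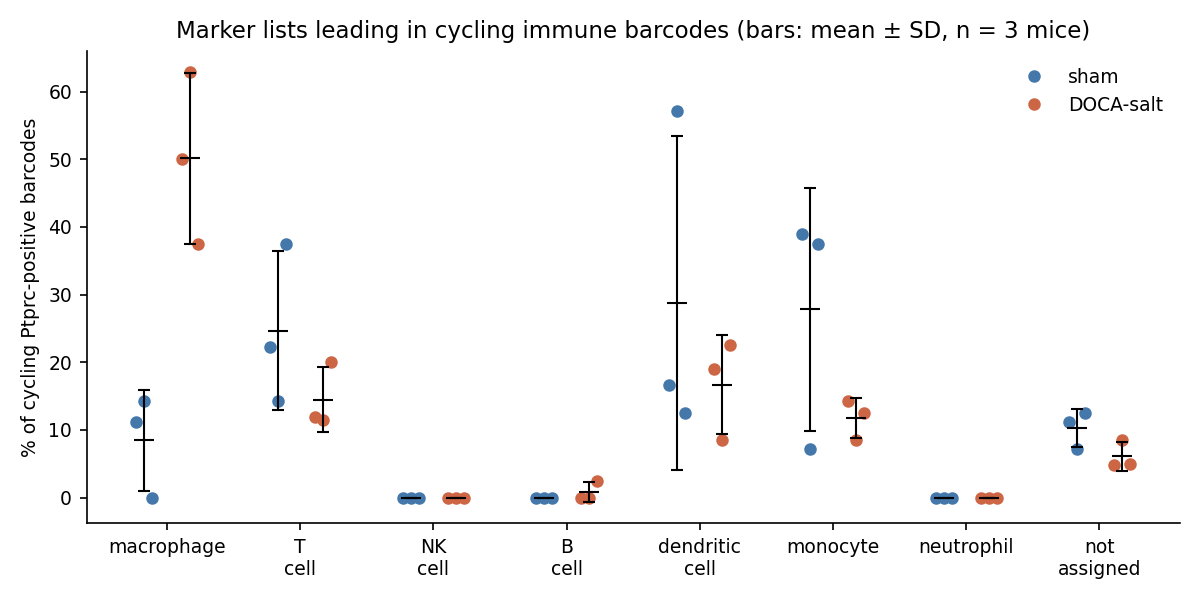
The y axis gives the percentage of cycling Ptprc-positive barcodes in which a marker list had the most UMIs, with 1 point per mouse and bars for the mean ± SD (n = 3 mice per group). The macrophage list led in 37.5% to 62.9% of them in DOCA-salt mice and in 0 to 14.3% in sham mice, while the groups overlap for the T cell, dendritic cell and monocyte lists.

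Cycling proximal tubule cells were numerous enough in every mouse for a test of gene expression between groups, on the UMIs summed per mouse over 129 sham and 106 DOCA-salt barcodes. Of 8143 genes tested with edgeR's quasi-likelihood test, 175 were higher in DOCA-salt mice (2.15%) and 83 were lower (1.02%) at an adjusted p under 0.05. Sham replicate 3 entered with 10 barcodes, and without it 482 genes passed, whereas 92 passed without sham replicate 2, 119 without sham replicate 1, 151 without DOCA-salt replicate 3 and 165 without DOCA-salt replicate 2. Of 13 tested genes of tubular injury and repair 7 were higher and 0 lower, with a median log2 change of 2.89 against -0.01 over all genes tested. Some passed the filter on low counts only through the DOCA-salt mice, such as Vcam1 (4 sham and 208 DOCA-salt UMIs) and Vim (3 and 121). Such genes could only come out higher, so that the 0 lower and the median follow in part from the filter. With 1 mouse left out, the count of higher genes ran from 5 of 15 (without sham replicate 2) to 12 of 15 (without DOCA-salt replicate 1). It was 5 of 18 when barcodes that also passed other gates were admitted and 17 of 19 with no filter on low counts, and the median stayed between 1.90 and 3.98 over the alternatives run.

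Spp1 (osteopontin, a secreted protein of injured tubules) was at 498, 912 and 827 CPM in sham and at 6825, 3269 and 7648 CPM in DOCA-salt mice (log2 2.89 ± 0.32 SE, edgeR adjusted p = 0.000184). It was detected in 112 of 129 sham members and in 106 of 106 DOCA-salt members. Vcam1, an adhesion molecule found on tubular cells that fail to recover, was at 5.60, 0 and 0 CPM in sham and at 49.6, 106 and 134 CPM in DOCA-salt mice (log2 5.44 ± 0.69 SE, edgeR adjusted p = 0.000456). The groups did not overlap for either gene, which for Vcam1 was also a condition of the rule for named genes. Sox4, a transcription factor, was at 21.0, 13.3 and 38.4 CPM against 120, 160 and 180 CPM (log2 2.95 ± 0.35 SE). Sox9, a transcription factor switched on in repairing tubules, was at 9.80, 0 and 0 CPM against 45.1, 40.5 and 103 CPM (log2 3.98 ± 0.73 SE). Clu (clusterin, a chaperone released by injured tubules) rose by a log2 of 3.25 and Anxa3 (annexin A3) by 4.26.

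Vim (vimentin, an intermediate filament) was at 4.20, 0 and 0 CPM against 104, 33.6 and 35.5 CPM, and 1 barcode held 53.7% of its DOCA-salt UMIs. List members that did not pass included Krt8, Krt18 (log2 1.59, edgeR adjusted p = 0.110), Cd24a, Timp2 and Myc. Havcr1, which encodes the injury marker KIM-1, was too low to be tested, at 0 in all 3 sham mice and 6.02, 24.7 and 49.3 CPM in DOCA-salt mice. With only the barcodes that held at least 50 UMIs of proximal tubule function genes (121 of 129 sham and 83 of 106 DOCA-salt members, sham replicate 3 dropping out with 8 barcodes), 5 of 12 injury genes were higher, with a median log2 change of 1.90.

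**Figure D5:**
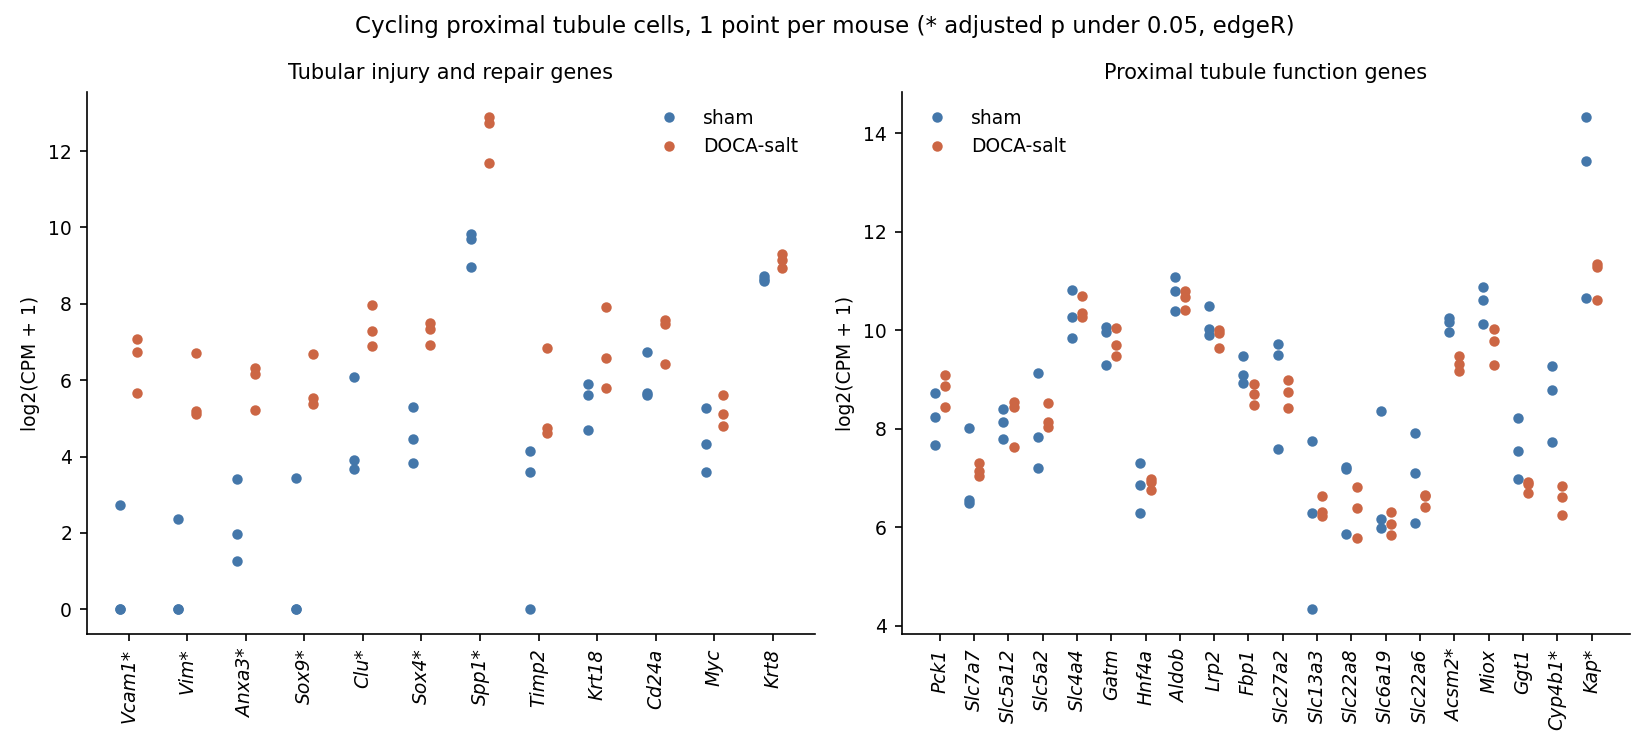
Each point is the level of a gene in the summed cycling proximal tubule barcodes of 1 mouse, as log2 of CPM plus 1, with genes sorted by their log2 change and an asterisk for an adjusted p under 0.05 by edgeR. The DOCA-salt points lie above the sham points for 7 starred injury genes (left), and 3 starred function genes are lower in the DOCA-salt group (right), of which Kap overlaps between groups.

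Changes were also compared between cycling and non-cycling proximal tubule cells of the same mice. Over all genes, the change differed for 557 of 16117 (3.46%). The test assumed the same spread for the cycling and the non-cycling sums of a gene. The cycling sums held 10 to 81 barcodes and the non-cycling sums 3972 to 5489. The p-values of the difference therefore do not measure the spread of the cycling sums alone between mice. The 13 tested injury genes include those, such as Vcam1 and Vim, that had passed the filter only through the DOCA-salt mice. Of the 13, 10 had a more positive change in cycling cells that passed the test of the difference, and the rest did not pass. This difference was not computed with only the barcodes that held at least 50 UMIs of proximal tubule function genes. Sox4 was at 30.5 CPM in sham and 55.9 CPM in DOCA-salt mice in non-cycling barcodes, a smaller step than in cycling ones (difference of log2 changes 1.94, edgeR adjusted p = 3.47e-07). Spp1 rose in both, from 948 to 4513 CPM in non-cycling barcodes, and its changes differed by 0.66 on the log2 scale (edgeR adjusted p = 0.0277). For Vcam1 the changes differed by 3.07 (edgeR adjusted p = 0.0001), with 5.22 and 27.0 CPM in non-cycling barcodes.

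Of 20 tested genes of proximal tubule function, 3 were lower and 0 higher, beside 1.02% lower and 2.15% higher over all genes, and the median log2 change was -0.62. The count of lower genes ran from 1 of 20 without sham replicate 1 to 7 of 21 without sham replicate 3, and was 0 of 21 when barcodes that also passed other gates were admitted. Cyp4b1, a cytochrome P450, fell from 619, 439 and 211 CPM to 114, 96.8 and 75.0 CPM (log2 -2.32 ± 0.33 SE, edgeR adjusted p = 0.00103). Acsm2, an acyl-CoA synthetase of mitochondria, fell by 0.90 on the log2 scale and Kap, an androgen-regulated kidney protein, by 2.46. The call was lost under 11 of 16 alternatives for Acsm2, 8 of 16 for Kap and 1 of 16 for Cyp4b1. Lrp2 (megalin, the receptor for filtered proteins) was at 961, 1441 and 1038 CPM against 979, 1023 and 803 CPM and did not pass (log2 -0.40 ± 0.23 SE). Other falls included Inmt, a methyltransferase, from 376, 237 and 202 CPM to 22.6, 43.4 and 17.8 CPM (log2 -3.35, edgeR adjusted p = 0.000184). Nr1d1, a repressor of the circadian clock, went from 111, 127 and 115 CPM to 19.6, 19.7 and 15.8 CPM (log2 -2.76, edgeR adjusted p = 0.000184). Inmt and Nr1d1 were named by a rule that requires groups without overlap. These falls were not confined to cycling cells. In non-cycling proximal tubule barcodes Inmt went from 592 to 152 CPM, Nr1d1 from 106 to 34.5 CPM and Cyp4b1 from 722 to 403 CPM. The change was more negative in cycling cells by 1.39, 1.08 and 1.43 on the log2 scale for Inmt, Nr1d1 and Cyp4b1.

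The further falls named by the rule for genes were Osgin1, Hsd3b3, Ttr, Gprin3 and Gm57231, with log2 changes from -2.19 (Hsd3b3) to -1.80 (Gm57231). Among the rises outside the injury list, Tgfb2, a growth factor of the TGF-beta family, was at 5.60, 0 and 0 CPM against 63.2, 70.1 and 63.2 CPM (log2 4.89, edgeR adjusted p = 0.000456). Serpina1a, a secreted protease inhibitor, rose by a log2 of 4.52. Marcks was at 1.40, 0 and 9.61 CPM in sham and 39.1, 37.5 and 55.3 CPM in DOCA-salt mice, and Sytl2 at 2.80, 0.740 and 0 CPM against 46.6, 40.5 and 116 CPM. With UMIs pooled over mice, the ratio was 45.7 for Marcks (95% counting interval 12.3 to 383) and 43.4 for Sytl2 (14.5 to 213). When barcodes that also passed other gates were admitted, the calls of Marcks (log2 1.75, edgeR adjusted p = 0.175) and Sytl2 (log2 2.69, edgeR adjusted p = 0.0922) were lost. So were those of Vcam1, Anxa3, Vim, Tgfb2, Plat, Ccnd1 and Slc12a3 among the rises (edgeR adjusted p from 0.0597 for Anxa3 to 0.811 for Vim) and of Osgin1, Hsd3b3, Gm57231, Cyp4b1, Acsm2, Kap, Tk1, Aurkb and Ect2 among the falls (from 0.0593 for Cyp4b1 to 0.217 for Aurkb). The log2 change of Ttr was -0.45 with 2 or more rule genes and no longer passed (edgeR adjusted p = 0.612), and the calls of Gprin3 (edgeR adjusted p = 0.137) and Serpina1a (edgeR adjusted p = 0.107) were lost without sham replicate 2. Of the 30 called genes of the rule for named genes and of the lists that were followed through the alternatives, 4 kept the call under every alternative run, Spp1, Sox4, Inmt and Nr1d1, and 26 lost it under at least 1. Among the falls, Gm57231 lost its call under 10 of 16 alternatives and Gprin3 under 6 of 16. Some of the largest rises rested on few cells: 1 barcode held 85.9% of the DOCA-salt UMIs of Tagln, a smooth muscle protein, and 66.0% of those of Plat, a plasminogen activator.

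Markers of other cell types moved with the groups in these barcodes. The summed fibroblast list was at 2.80, 2.96 and 9.61 CPM in sham and 72.2, 69.1 and 55.3 CPM in DOCA-salt mice, and in non-cycling proximal tubule barcodes at 11.5 ± 4.60 and 69.3 ± 19.2 CPM (SD, n = 3). The smooth muscle list was at 9.80, 3.70 and 9.61 CPM in sham and 161, 203 and 21.7 CPM in DOCA-salt mice. Slc12a3 of the distal convoluted tubule rose from 9.80, 7.40 and 9.61 CPM to 256, 64.2 and 41.4 CPM. The endothelial list was at 15.2 ± 7.36 and 39.1 ± 13.9 CPM with 0 of its 10 genes high enough to be tested, and the T cell list was at 0 in all 6 mice. The part of these markers in the changes was not tested.

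Levels of cell-cycle genes in these cells are given as a description, since the members were chosen by detection of such genes. The DOCA-salt members were deeper, with a median of 18748 UMIs against 15976, and the 6 genes of the rule themselves had a median log2 change of -0.37, all 6 negative. The part of the choice of members in the values below was not tested. Of 23 tested DNA replication genes 1 was lower, Tk1 (thymidine kinase 1), at 200, 96.2 and 96.1 CPM against 69.2, 51.3 and 47.4 CPM (log2 -1.41 ± 0.33 SE, edgeR adjusted p = 0.0279). The median log2 change of the 23 genes was -0.65, and all 23 were negative. Of 26 mitosis genes 2 were lower, Aurkb (Aurora kinase B, log2 -1.21) and Ect2, an activator of RhoA in cytokinesis (log2 -1.67), and the median was -0.34. The call was lost under 5 of 16 alternatives for Tk1, 11 of 16 for Aurkb and 7 of 16 for Ect2. Over all genes 1.02% were lower. With 2 or more rule genes required, 5 replication genes (median -0.90) and 6 mitosis genes (median -0.65) were lower, whereas 0 mitosis genes were lower without doublet-like barcodes. Leaving out 1 mouse gave 0 to 2 lower replication genes, with 0 without sham replicate 1, DOCA-salt replicate 2 or DOCA-salt replicate 3, and 0 to 3 lower mitosis genes, with more than 0 only without sham replicate 3 or DOCA-salt replicate 1. Among 11 tested G1/S genes, Ccnd1 (cyclin D1, which starts the cycle) was higher, at 50.4, 99.1 and 106 CPM in sham and 196, 237 and 411 CPM in DOCA-salt mice (log2 1.69 ± 0.33 SE, edgeR adjusted p = 0.00957), and 0 were lower. Of 12 tested inhibitor and checkpoint genes 0 passed. Summed per mouse, the replication list was at 1974 ± 520 and 1345 ± 248 CPM and the mitosis list at 3717 ± 1163 and 3086 ± 564 CPM (SD, n = 3; exact permutation p = 0.2 and p = 0.5). Of 14 genes that respond to tissue dissociation 0 passed between groups, with a median log2 change of 0.25. In the test of the difference from non-cycling cells 6 of these 14 passed (median difference 0.51), beside 10 of 13 injury genes and 3.46% of all genes. The part of dissociation in these differences was not tested.

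In all cycling cells summed regardless of lineage, 321 of 11724 genes were higher in DOCA-salt mice (2.74%) and 52 were lower (0.444%) by edgeR. These sums mix lineages, and a change in the mix cannot be told apart from a change within cells. Of 10 endothelial genes 2 were higher, Plvap at 3.98, 0 and 22.1 CPM against 244, 198 and 166 CPM and Kdr at 12.8, 0 and 18.9 CPM against 120, 151 and 172 CPM. This count was 0 of 10 without sham replicate 1 or any 1 DOCA-salt mouse, 10 of 10 without sham replicate 3 and 8 of 10 with no filter on low counts. Of 8 macrophage genes 3 were higher, C1qc, Mrc1 and Trem2. Aplnr, the apelin receptor of growing vessels, had 0 UMIs in the sham members and was at least 45.4-fold higher in DOCA-salt mice against a floor of 3 counts over the sham group. Fabp4, a fatty acid carrier of capillary endothelium and macrophages, was at 23.1, 2.18 and 12.6 CPM in sham and 1105, 961 and 1282 CPM in DOCA-salt mice (log2 6.37 ± 0.69 SE, edgeR adjusted p = 0.00987).

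The largest rises by the rule for named genes were Col1a2, Aplnr, Gpihbp1, Col3a1, Bgn, Lhfp, Slit3 and Mgp, and 1 barcode held 52.2% of the Col1a2 UMIs of DOCA-salt mice. The largest falls were Inmt, Car3, Nr1d1, Nqo1, Cyp4b1, Ugt3a1, Ttr and Pik3c2g, with log2 changes from -3.52 (Inmt) to -2.20 (Pik3c2g). Nqo1, an antioxidant enzyme, fell from 72.5, 76.3 and 28.4 CPM to 13.2, 15.2 and 7.98 CPM (log2 -2.50, edgeR adjusted p = 0.0232). Aqp3, a water channel of principal cells, fell from 52.6, 64.3 and 104 CPM to 13.6, 16.7 and 26.6 CPM (log2 -2.03, edgeR adjusted p = 0.0246). Each gene named here as higher or lower in all cycling cells lost its call under at least 1 alternative, with edgeR adjusted p of up to 0.0558 for Fabp4, 0.0618 for Aplnr, 0.0857 for Inmt, 0.110 for Nqo1 and 0.121 for Aqp3. The change in all cycling cells differed from that in all non-cycling cells for 45 of 18899 genes (0.238%). These counts moved with single mice: leaving out sham replicate 1 left 3 changed genes, and leaving out sham replicate 3, whose 25 members held 16.0% endothelial barcodes by gate and markers, gave 2906.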

How the data were processed

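Single-cell RNA was measured in kidneys of 3 sham and 3 DOCA-salt mice with the 10x 3′ method. The authors deposited raw UMI counts per gene and barcode without normalization or cell labels. The submitters' processing notes name Cell Ranger 9.0.0 and GRCm39, the matrix headers Cell Ranger 8.0.1, and the annotation release is not given in the sources used here. Members, lists and tests were chosen with earlier results of these data known. Groups came from the sample titles. Whether mice were processed together is not stated.

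Numbers of cycling barcodes were tested with edgeR 4.0.16 (R 4.3.3, quasi-likelihood, log of eligible barcodes as offset, Benjamini-Hochberg). A common dispersion was fitted over the classes of a setting, which share barcodes where other gates were admitted. Percentages were compared with two-sided exact permutation tests over all splits of the mice (numpy 2.4.6). Counting intervals came from scipy 1.17.1. UMIs were summed per mouse over at least 10 cycling barcodes and tested with edgeR (filterByExpr, TMM), against non-cycling barcodes (0 of the 6 genes detected) with the mouse as a block. The other lineages of a single gate had fewer than 10 members in every sham mouse, and genes were not tested in cycling immune barcodes with other gates admitted. CPM values are of the unadjusted sums. Floors and counting intervals cover counting error only. Doublet scores came from Scrublet (scanpy 1.11.5), and no barcode was removed by them. The tests were also run on simulated counts. Those were drawn with 1 spread for all genes and 1 base share for all classes, unlike these data, and no support is drawn from them. Genes named are those of the rule, the gates and the lists, and the 8 largest rises and falls (5 for the difference) among called genes whose groups did not overlap and whose mean reached 20 CPM. Alternatives were another number of rule genes, thinning to 2000 UMIs, a mitochondrial limit of 20%, doublet removal, other gates, other normalizations and filters, DESeq2 1.42.0, a replicate block and leaving out each mouse. Thinning redrew the counts of the 6 rule genes only, in barcodes of at least 2000 UMIs, with gates and lists from the full counts. The values of 1 tested list gene are not reported here.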

Additional observations from a re-analysis of the deposited data

Results flagged for a closer look

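The DOCA-salt change of 557 genes differed between cycling and non-cycling proximal tubule cells by the edgeR test of the difference itself. Tagln, Plat, Vim, Gpc6 and Prkg1 had the largest positive differences, and Ttr, Osgin1 and Lin7a were among the 5 largest negative ones, by the rule for named genes. The others of these 5 are cell-cycle genes, E2f7 and Spag5, whose low level in non-cycling cells follows from how those cells were chosen, so that nothing is read from their differences. Of the DOCA-salt UMIs of Prkg1, 1 barcode held 48.3%. For Tagln, whose UMIs lay mostly in 1 barcode, the edgeR adjusted p was 0.00403 between groups in cycling cells and 4.01e-19 for the difference. The test of the difference assumed the same spread for cycling and non-cycling sums. Its p-values and the count of 557 therefore do not measure the spread of the cycling sums alone between mice.

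In all cells, 45 genes differed in the same way. Gpihbp1, which anchors lipoprotein lipase to capillaries, was at 0, 0 and 3.16 CPM in cycling cells of sham and at 69.4, 102 and 77.7 CPM in those of DOCA-salt mice. The 45 genes were 7 to 2098 when 1 mouse was left out.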

How the results depend on the processing

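The endothelial share kept its direction and its call under every alternative run, with edgeR adjusted p for barcodes of the Pecam1 gate alone from 2.21e-05 to 0.00594 when 1 mouse was left out and 0.00855 with the replicate block, and from 3.45e-05 to 0.0141 by gate plus markers when 1 mouse was left out. Whether mice of the same replicate number belong together is not stated. Correlations of their deviations in gene levels ran from -0.17 to 0.05 in proximal tubule cells and from -0.03 to 0.27 in all cells. These few values cannot show that pairing is absent. In both groups replicate 2 had the highest and replicate 3 the lowest cycling share. With the replicate block the log2 difference of the proximal tubule share was 0.26, against -0.12 without it. The replicate block gave 277 changed genes in proximal tubule cells and 253 in all cells, and it ended the thick limb call (0.549 points, edgeR adjusted p = 0.140). The gate-plus-marker count, its thinned form, library size alone, the limit of 50 proximal-list UMIs and the thinned macrophage share were chosen after seeing the data. Causes of the moves were not tested.

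Differences are DOCA-salt minus sham, in percentage points. The share of all cells was 1.10 at 20% mitochondrial UMIs and then passed, 0.153 on thinning, and 0.406 to 0.998 leaving out 1 mouse. The proximal tubule share reversed to 0.182 with 2 or more rule genes and to 0.492 with every barcode passing the gate, and was -0.190 on thinning. It ran from -0.414 to 0.364 leaving out 1 mouse, positive without sham replicate 2 (0.364) or DOCA-salt replicate 3 (0.0478). The thick limb call was lost with 4 or more rule genes (0.361), thinning (0.209), 20% mitochondrial UMIs (1.72), every barcode passing the gate (0.733) and gate plus markers (0.644), reversed in the thinned form of the last (-0.0578), and leaving out 1 mouse was lost (0.475 to 0.549) but for DOCA-salt replicate 2, without which it was kept (0.675). The immune share reversed on thinning (-0.0652). With 2 or more rule genes the classes of several gates (2.60) and no gate (0.852) passed. In the make-up, the difference moved by over 1 SD for the thick limb (4.02) and fibroblasts (3.74) with every barcode passing the gate, for fibroblasts (0.725), immune cells (0.0397) and no gate (4.61) on thinning, and for endothelial cells with 2 or more rule genes (8.11), thinning (13.8), 20% mitochondrial UMIs (11.9) and every barcode passing the gate (19.1).

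The 258 genes changed in cycling proximal tubule cells (1178 at an unadjusted p under 0.05) were 172 with DESeq2, 737 without a filter, 164 at 20% mitochondrial UMIs, where sham replicate 3 and DOCA-salt replicate 3 dropped out, 166 without doublet-like barcodes and 92 to 482 leaving out 1 mouse (lowest without sham replicate 2). Library size alone moved the median of all genes to 0.10 and the split from 175 higher and 83 lower to 210 and 50, and every barcode passing the gate gave 175 and 19. With at least 50 proximal-list UMIs the split was 116 and 96. The difference from non-cycling cells ran from 280 to 693 leaving out 1 mouse and was 785 at 20% mitochondrial UMIs. In all cycling cells the 373 genes were 627 with DESeq2, 1343 without a filter, 1151 with 2 or more rule genes and 3 to 2906 leaving out 1 mouse. Library size alone moved the median to 0.12 and the split from 321 and 52 to 411 and 35. The 45 differing genes were 303 without a filter and 7 to 2098 leaving out 1 mouse.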
